A study of Oryctolagus cuniculus with 12 samples.

Results

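The 45 genes described here run or mark the S and M phases of the cell cycle. They were taken by name from the 29076 genes of the deposited table: 30 act in G2 and mitosis (called mitotic members below), and 15 license, feed or start DNA replication (S-phase members). The rule is a list of names and holds no threshold on a measured value, but the list was drawn up with earlier results of these data known. Each name matched 1 row, and all 45 passed the filter on low counts. By gene identifier 44 of the 45 had an entry in a RefSeq gene table (assembly mOryCun1.1), each under the same symbol, and CDT1 had none.

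The study sequenced RNA from rabbit cornea after different illumination, in 12 libraries. A control group and the groups blue_light, GL and RL had 3 libraries each; what GL and RL stand for, and the wavelength and intensity of any light, is not in the labels. The animals were 6 months of age and ate a normal diet, and every library, also those of the control group, carries the treatment text of light for 6 weeks, so how the controls were lit is not clear from the labels. Whether each library is a separate animal is not labelled either: the p-values measure the spread between libraries, and that spread may be technical.

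The corneal epithelium renews itself throughout life from dividing basal and limbal cells, while most keratocytes of the stroma rest. In a dividing cell, E2F transcription factors switch on the replication genes before S phase, and the MuvB complex with B-MYB and FOXM1 switches on the mitotic genes later, in G2. Cyclin B then activates the kinase CDK1 to drive entry into mitosis, and the anaphase-promoting complex ends mitosis by marking cyclin B for destruction. In bulk RNA, fewer cycling cells and less RNA per cycling cell cannot be told apart.

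Total counts ran from 40.9 to 64.7 M (mega) per library, which stood for an estimated 11.0 to 17.4 M fragments. A detection floor of 3 fragments lay at 0.173 to 0.258 CPM (counts per mega counts). CPM here are counts scaled by library sizes corrected with the trimmed mean of M-values (TMM). The corneal keratin KRT12 stood at 14397 to 27608 CPM in every library, whereas ZP4 of the corneal endothelium was at 0 in all 12. Retinal transcripts were uneven: the mean log2 CPM of a retina list of 13 genes was 4.15 in GL 3, 2.33 in blue_light 1 and 1.85 in control 2, and lay between −3.22 and 0.10 in the 9 other libraries. A set of 5 libraries (all blue_light libraries, control 1 and RL 1) held 2389 to 2563 genes at counts of 1 to 20, against 767 to 1461 genes in the 7 others. The members are set against this library set below, because every blue_light library is in it and only 1 control is.

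Compared per transcript length in FPKM (fragments per kilobase of transcript and mega fragments), the S-phase members were the more abundant class. Their median of mean FPKM over 12 libraries was 7.46, against 3.64 for the mitotic members and 5.49 for all tested genes. PCNA, the sliding clamp of the replication fork, led with a mean level of 50.8 FPKM. It was followed by MCM7 of the replicative helicase at 19.5 FPKM and RRM1, the large subunit of ribonucleotide reductase, at 16.8 FPKM. The highest mitotic levels were 13.1 FPKM for UBE2C, the ubiquitin-conjugating enzyme of the anaphase-promoting complex, and 12.8 FPKM for CDK1. The lowest mean level was that of CENPE, a kinetochore motor, at 0.420 FPKM.

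In each library the mean log2 CPM over the 30 mitotic members gave a level for the class. The 3 controls stood at 3.59, 2.0 and 2.34, the blue_light libraries at 3.57, 3.93 and 3.83, the GL libraries at 3.47, 3.24 and 2.65, and the RL libraries at 3.80, 3.01 and 3.59. Control 1 was thus at the level of the light groups, and the lowest libraries were controls 2 and 3, with GL 3 next. Over the 15 S-phase members the same measure was 4.13, 3.86 and 3.90 in the controls, 3.84, 3.82 and 4.19 in blue_light, 4.13, 4.05 and 3.60 in GL, and 3.64, 4.05 and 3.77 in RL. Every group overlapped every other in the S-phase level. The pooled SD within groups was 0.520 for the mitotic level and 0.218 for the S-phase level.

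**Figure D1:**
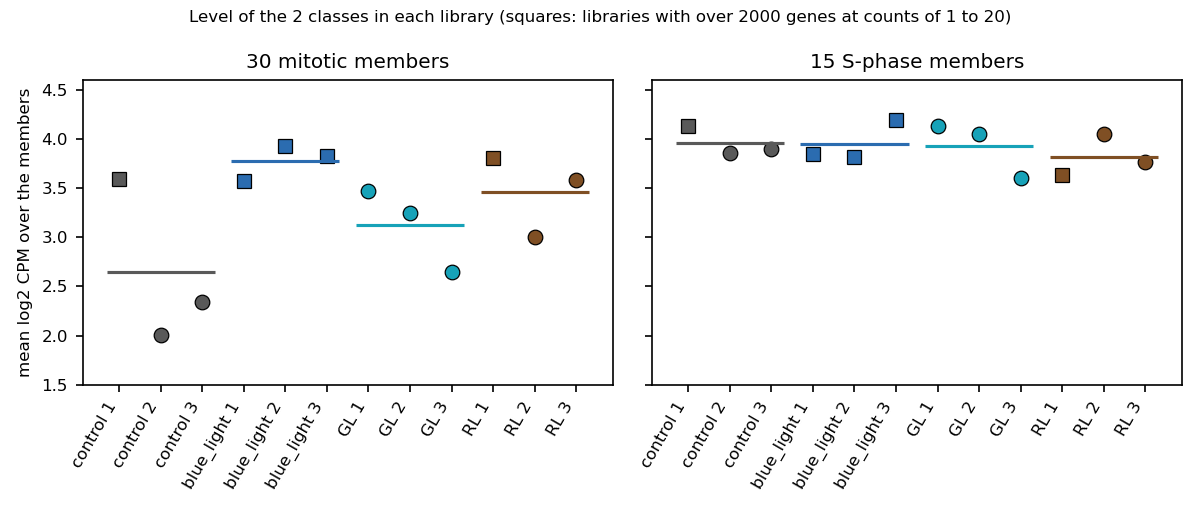
Mean log2 CPM over the 30 mitotic members (left) and the 15 S-phase members (right) in each of the 12 libraries; horizontal bars are group means, and squares mark the 5 libraries with over 2000 genes at counts of 1 to 20. Controls 2 and 3 are lowest in the mitotic panel at 2.0 and 2.34, while control 1 stands at 3.59 among the light groups, and the S-phase levels lie between 3.60 and 4.19 with no separation of groups.

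The controls were therefore looked at one by one. Control 1 was the highest control for 26 of the 30 mitotic members (86.7%), for 8 of the 15 S-phase members (53.3%) and for 39.2% of all tested genes. It exceeded 2-fold the mean of controls 2 and 3 in 18 mitotic members (60%), in 1 S-phase member and in 5.53% of all tested genes. The median log2 ratio of control 1 to the mean of controls 2 and 3 was 1.14 for the mitotic members, 0.21 for the S-phase members and 0 for all tested genes. MKI67, the gene of the proliferation antigen Ki-67, stood at 55.2 CPM in control 1, 7.46 in control 2 and 19.3 in control 3. TOP2A, the topoisomerase that untangles sister chromatids, stood at 60.3, 9.51 and 21.0 CPM in controls 1 to 3. Both genes were at 29.1 to 72.3 CPM in blue_light, a range that held control 1 and neither of the other controls. Among the S-phase members RRM1 stood at 73.4, 34.7 and 47.4 CPM in controls 1 to 3, while its partner RRM2 stood at 25.7, 26.5 and 24.3.

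**Figure D2:**
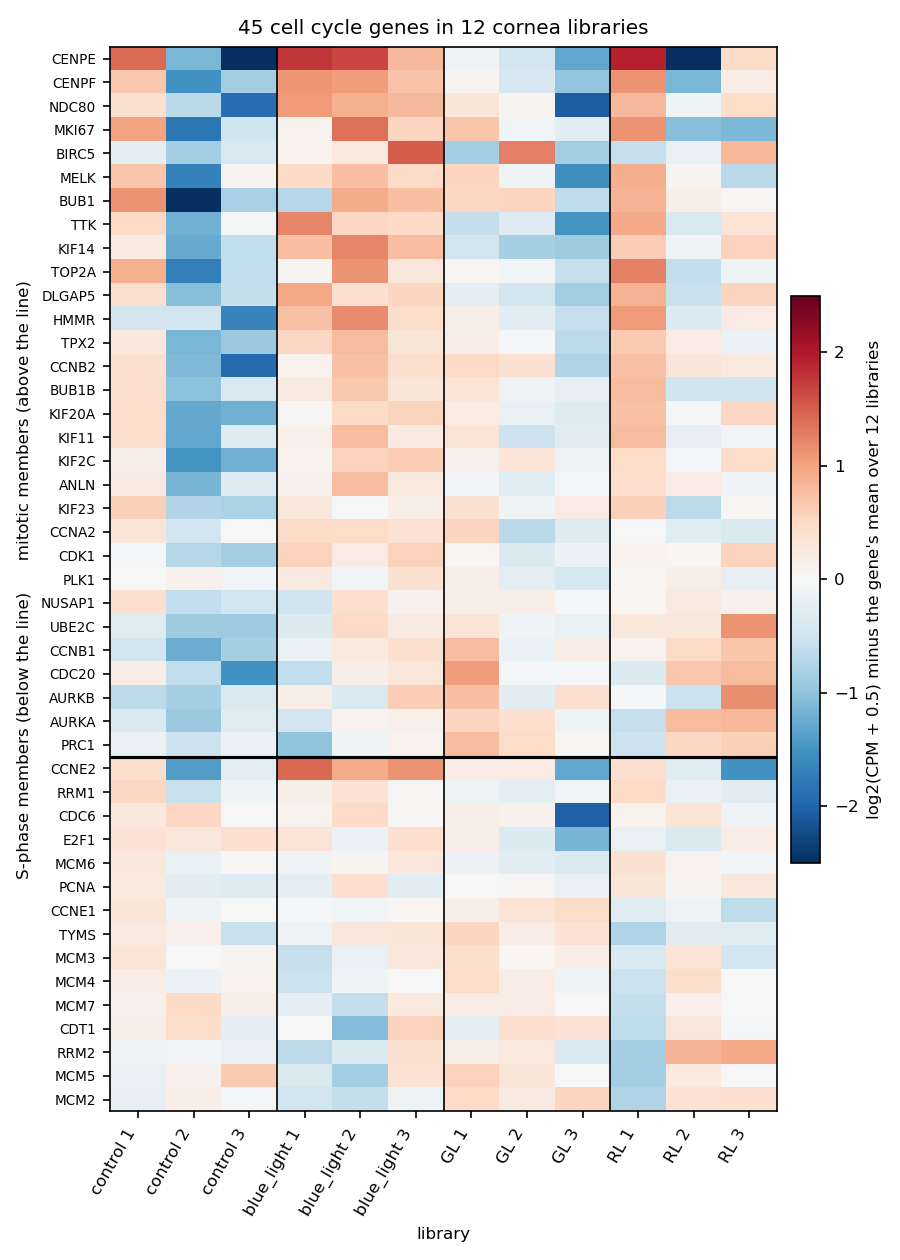
Level of each member in each library as log2(CPM + 0.5) minus the mean of that gene over the 12 libraries, with mitotic members above the heavy line and S-phase members below it; values beyond the ends of the colour scale take the end colour. Control 1 is redder than controls 2 and 3 in most mitotic rows, as counted in the text (26 of 30), and most S-phase rows are paler, with CCNE2 the most uneven of them.

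Blue_light was compared with control, with all blue_light libraries and only 1 control in the library set. All 30 mitotic members had a higher fitted level in blue_light, with a median log2 difference of 0.87, although PRC1 was only just above 0 at 0.00 ± 0.35 (SE). Of the 15 S-phase members 5 were higher and 10 lower, with a median of −0.11. The median over all 18171 tested genes was 0.01, and 51.8% of them lay above 0. No member changed by edgeR's quasi-likelihood test at a Benjamini-Hochberg adjusted p of 0.05, where 0.0165% of all genes did, and DESeq2 and limma called none either. At an unadjusted edgeR p below 0.05 there were 9 members, all of them mitotic and higher, against 3.26% of all genes in either direction and 1.75% higher. Groups that did not overlap, with blue_light the higher, were found for 11 mitotic members and 1 S-phase member, against 4.91% of all genes, and with blue_light the lower for none, against 4.09%.

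CDK1, the kinase that drives entry into mitosis (chr18:25387628-25403308, minus strand; the deposited table names no build, and the chromosome number follows from its sequence identifiers), stood at 16.1, 9.80 and 8.93 CPM in the controls and at 24.8, 19.2 and 24.9 in blue_light. All 3 blue_light libraries lay above all 3 controls. The group means were 11.6 ± 3.93 and 22.9 ± 3.28 CPM (SD, n = 3 each), a log2 difference of 0.98 ± 0.26 (edgeR, unadjusted p = 0.00262, adjusted p = 1). KIF14, a kinesin needed for cytokinesis, stood at 10.8, 3.57 and 5.88 CPM in the controls and at 15.8, 22.0 and 16.1 in blue_light. Here too the groups were apart, with a log2 difference of 1.41 ± 0.38 (edgeR, unadjusted p = 0.00254, adjusted p = 1). HMMR, a spindle-associated receptor for hyaluronan, stood at 3.61, 3.61 and 1.28 CPM against 8.85, 12.3 and 7.18. Its lowest blue_light library was above the highest control, and its log2 difference was 1.73 ± 0.48 (edgeR, unadjusted p = 0.00337, adjusted p = 1).

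The other mitotic members without overlap in this comparison were CCNB1, CCNA2, TPX2, CENPF, NDC80, DLGAP5, TTK and BIRC5. TPX2, which activates Aurora A on spindle microtubules, stood at 25.2, 9.21 and 10.7 CPM in the controls and at 30.1, 36.3 and 25.8 in blue_light. CENPF, a large protein of the kinetochore, stood at 39.6, 8.33 and 13.4 CPM against 53.8, 51.7 and 40.7. NDC80, which ties kinetochores to microtubules, stood at 4.92, 2.10 and 0.622 CPM against 8.18, 7.23 and 6.79. For TPX2 and CENPF control 1 came just under the lowest blue_light library, and for all 3 genes controls 2 and 3 lay well below it. Control 1 lay within the blue_light range for 15 mitotic members, above it for 3 and below it for 12. Blue_light over control 1 alone had a median log2 ratio of 0.19 over the mitotic members, 20 of them higher and 10 lower, whereas blue_light over the mean of controls 2 and 3 had a median of 1.27. For the S-phase members the same medians were −0.18 (1 higher, 14 lower) and −0.05.

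Fits without 1 control showed how far a single library set the size of the blue_light difference. Without control 1 the mitotic median was 1.36 and 22 mitotic members had an unadjusted edgeR p below 0.05, against 6.43% of all genes. Without control 2 it was 0.55 with 4 such members, and without control 3 it was 0.74 with 4. With a term for the library set in the fit, 23 mitotic members were higher and 7 lower, and the median was 0.42 with 3 members at an unadjusted p below 0.05. That term is informed by the control and RL libraries, the groups with libraries inside and outside the set, since all blue_light libraries are in it and no GL library is. The fit with all libraries and no such term had 9 mitotic members below that p, against 3.26% of all genes. The shares of all genes are not given here for the fits without control 2, without control 3 or with the term.

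**Figure D3:**
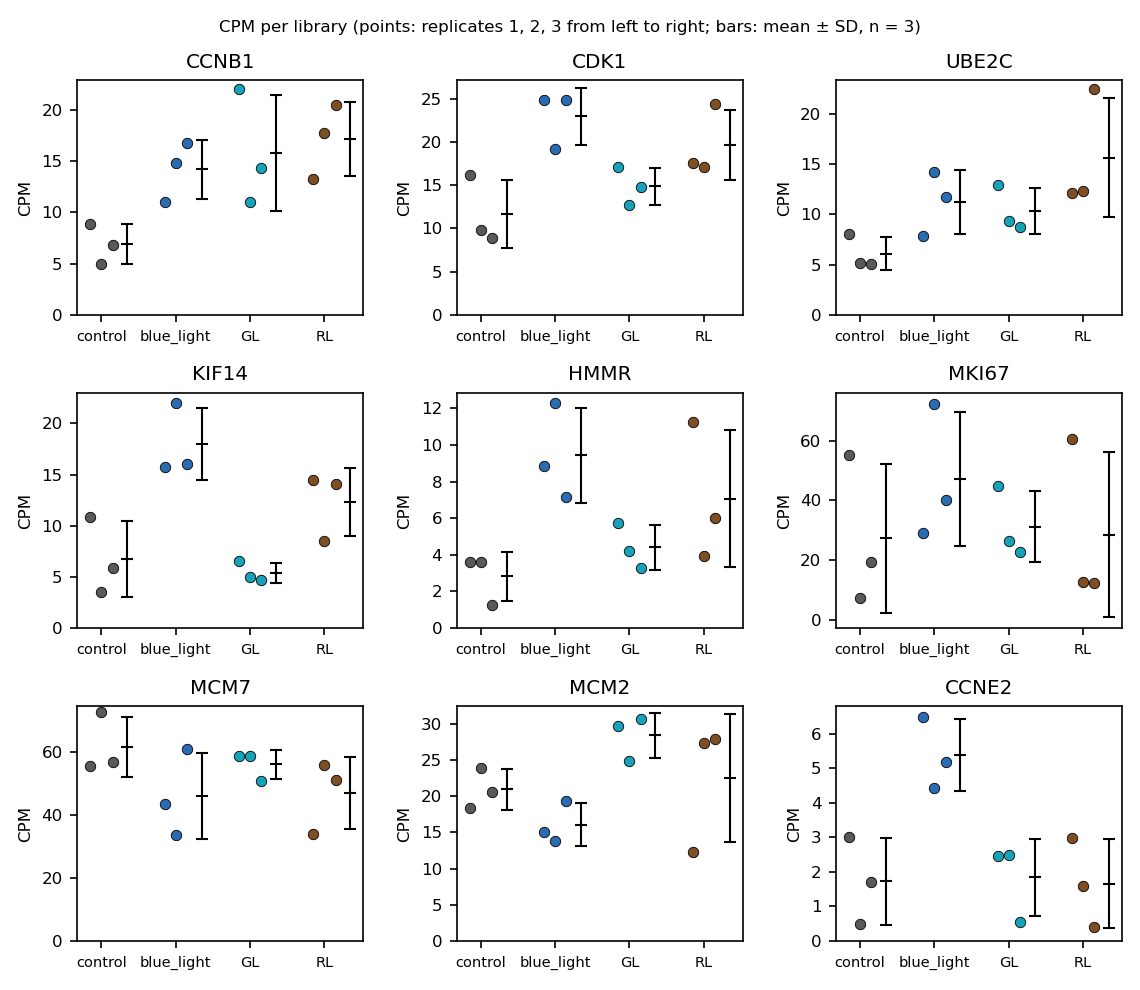
CPM of 9 members in each library by group (points, replicates 1 to 3 from left to right) with the mean and SD of each group (bars, n = 3), on axes that start near 0 and differ between panels. CCNB1 is above all controls in all 9 light libraries, CDK1, KIF14 and HMMR are apart from control in blue_light, MKI67 is at 55.2 in control 1 against 7.46 and 19.3 in the other controls, and MCM7 and MCM2 overlap between blue_light and control.

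GL was set against control in the same fit and shares its controls with the other light groups. The mitotic members were divided: 21 were higher and 9 lower, with a median log2 difference of 0.30 against −0.02 over all genes, of which 48.2% were above 0. The S-phase members had 10 higher and 5 lower, with a median of 0.08. No member changed by edgeR, against 0.055% of all genes, nor by DESeq2 or limma. An unadjusted edgeR p below 0.05 was reached by 3 members, CCNB1, UBE2C and AURKA, where 8.1% of all genes reached it. Groups did not overlap, with GL higher, for 5 mitotic members and 1 S-phase member, against 9.21% of all genes, and with GL lower for 1 S-phase member, against 9.25%.

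Those 5 mitotic members were CCNB1, UBE2C, AURKA, AURKB and PRC1. CCNB1, the cyclin B that activates CDK1 (chr11:85364692-85371347, plus strand, same numbering), stood at 8.86, 4.99 and 6.84 CPM in the controls and at 22.1, 11.0 and 14.3 in GL. The means were 6.90 ± 1.94 and 15.8 ± 5.67 CPM (SD, n = 3 each), with a log2 difference of 1.20 ± 0.31 (edgeR, unadjusted p = 0.00227, adjusted p = 0.426). UBE2C stood at 8.03, 5.20 and 5.08 CPM in the controls and at 12.9, 9.30 and 8.75 in GL, a log2 difference of 0.76 ± 0.33 (edgeR, unadjusted p = 0.0402). AURKA, the Aurora kinase of the spindle poles, stood at 4.55, 2.99 and 4.83 CPM against 9.07, 8.34 and 5.59. AURKB, the Aurora kinase of the chromosomal passenger complex, stood at 2.18, 1.87 and 2.76 CPM against 6.56, 2.98 and 5.08. PRC1, which bundles microtubules at the spindle midzone, stood at 13.5, 10.5 and 13.7 CPM against 26.2, 21.2 and 15.6. In all 5 genes the 3 GL libraries lay above the 3 controls, control 1 included. CDK1, in contrast, stood at 17.1, 12.7 and 14.7 CPM in GL, a range that control 1 lay within, with a log2 difference of 0.35 ± 0.26.

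The 9 mitotic members with fitted levels below control in GL all overlapped it: CCNA2, KIF14, TOP2A, PLK1, CENPE, CENPF, DLGAP5, TTK and MELK. Other kinetochore, checkpoint and kinesin members lay on the other side of 0, among them NDC80 (log2 0.23), BUB1 (0.33), BUB1B (0.27), KIF11 (0.13), KIF20A (0.37), KIF23 (0.34) and KIF2C (0.82). TTK, the kinase also called MPS1 that starts the spindle checkpoint, stood at 15.2, 4.34 and 10.3 CPM in the controls and at 6.90, 8.39 and 3.49 in GL, with a log2 difference of −0.67 ± 0.48. CENPF stood at 26.1, 18.5 and 12.3 CPM in GL and KIF14 at 6.53, 4.96 and 4.75, both overlapping the controls. The mitotic median of GL also moved with single controls: it was 0.93 without control 1 (11 members at an unadjusted edgeR p below 0.05, against 8.28% of all genes), 0.05 without control 2 (16 higher, 14 lower) and 0.10 without control 3. In the 7 libraries outside the library set, which leave controls 2 and 3 against all GL libraries, the median was 0.93 and 15 mitotic members had an unadjusted p below 0.05, against 10.3% of all genes.

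RL was the third light group set against the same controls. Of the mitotic members 28 had a higher fitted level in RL and 2 a lower one, CCNA2 and PLK1, with a median log2 difference of 0.74 against 0.00 over all genes, of which 50.5% were above 0. The S-phase members had 5 higher and 10 lower, with a median of −0.17. Again no member changed by edgeR, against 0.011% of all genes, or by limma. DESeq2, which called 87 genes in all here, called CCNB1 (log2 1.32, adjusted p = 0.0268) and UBE2C (log2 1.36, adjusted p = 0.0428). The 8 members with an unadjusted edgeR p below 0.05, against 4.74% of all genes and 2.31% that were higher, were all mitotic and higher: CCNB1, UBE2C, CDK1, HMMR, AURKA, KIF2C, KIF14 and AURKB. CCNB1, UBE2C, CDK1 and HMMR were the 4 mitotic members without overlap and with RL higher, against 3.66% of all genes, and E2F1 and CCNE1 were the 2 S-phase members with RL lower, against 4.66%.

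CCNB1 stood at 13.3, 17.7 and 20.5 CPM in RL, a mean of 17.2 ± 3.63 (SD, n = 3) and a log2 difference from control of 1.32 ± 0.32 (edgeR, unadjusted p = 0.00114, adjusted p = 0.565). UBE2C stood at 12.1, 12.3 and 22.4 CPM in RL, all above its highest control, with a log2 difference of 1.36 ± 0.34 (edgeR, unadjusted p = 0.00148, adjusted p = 0.644). CDK1 stood at 17.5, 17.1 and 24.3 CPM, a mean of 19.7 ± 4.05, with a log2 difference of 0.76 ± 0.26 (edgeR, unadjusted p = 0.0127). HMMR stood at 11.2, 3.96 and 6.01 CPM, with RL 1 the highest and RL 2 barely above the controls. The RL libraries were uneven in other mitotic genes: MKI67 was at 60.4 CPM in RL 1, 12.8 in RL 2 and 12.3 in RL 3, and TOP2A at 78.3, 20.9 and 29.7. RL 1 is the RL library that belongs to the library set, and it was the highest RL library in both genes.

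AURKA and CDC20, the activator of the anaphase-promoting complex, showed the opposite order in RL. AURKA was at 3.94 CPM in RL 1, 11.0 in RL 2 and 11.2 in RL 3, and CDC20 at 6.89, 14.4 and 15.7. Here RL 1 was the lowest of the RL libraries and lay within the range of the controls for both genes. The mitotic median of RL was 1.32 without control 1 (20 members at an unadjusted edgeR p below 0.05, against 6.63% of all genes), 0.44 without control 2 (3 members) and 0.56 without control 3 (3 members). In the 7 libraries outside the set it was 1.07, with 13 members at an unadjusted p below 0.05, against 8.77% of all genes. The fit with all libraries had 8 such members, against 4.74% of all genes. The shares of all genes are not given here for the fits without control 2 or without control 3.

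CCNB1 was the member with all light libraries on one side of the controls. Its controls stood at 8.86, 4.99 and 6.84 CPM and its blue_light libraries at 11.1, 14.8 and 16.7, so that, with the GL and RL values given before, all 9 light libraries lay above all 3 controls. No other member of the 45 had this pattern, and 0.259% of all genes did. Pooled over the light groups, its log2 difference from control was 1.19 ± 0.27 (edgeR, unadjusted p = 0.000841, adjusted p = 0.599). DESeq2, which called 55 genes in all here, called CCNB1 (adjusted p = 0.0112). In this pooled comparison all 30 mitotic members were higher, where 47.8% of all genes were, with a median of 0.54, and 6 S-phase members were higher and 9 lower, with a median of −0.07. By edgeR none of the 45 changed, where 0.011% of all genes did, and 8 mitotic members had an unadjusted p below 0.05 and were higher, against 4.2% of all genes in either direction and 1.73% higher. The mitotic median was 1.22 without control 1, 0.27 without control 2 and 0.45 without control 3. The mean log2 CPM of the 5 libraries of the library set minus the 7 others was 0.04 for CCNB1 and 0.50 for CDK1. Because the set holds all blue_light and no GL libraries, this difference mixes the set with the groups. Control 1, in the set, was the highest control for CCNB1 at 8.86 CPM. RL 1, also in the set, was its lowest RL library at 13.3 CPM.

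**Figure D4:**
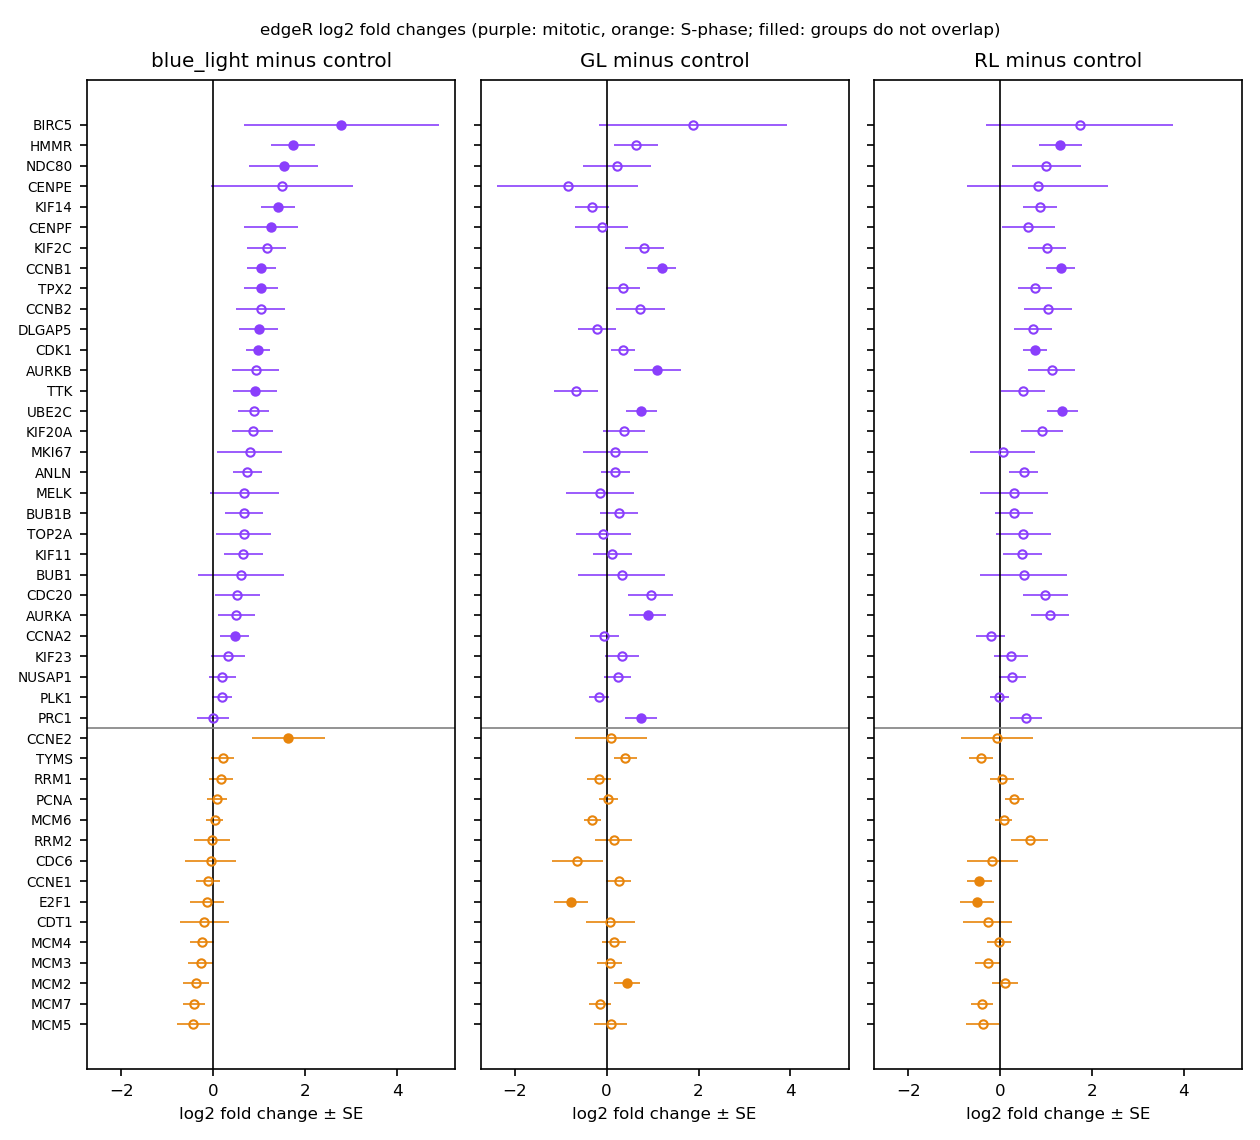
edgeR log2 differences of each light group from control, with standard errors, for the 45 members (mitotic in purple above the line, S-phase in orange below it; filled points mark genes whose 2 groups do not overlap). All 30 mitotic points are at or above 0 in blue_light, 21 in GL and 28 in RL, and the S-phase points scatter around 0 in each panel with medians of −0.11, 0.08 and −0.17.

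The S-phase members were taken by role, starting with the MCM2 to MCM7 helicase that opens DNA at replication origins. MCM2 stood at 18.4, 23.9 and 20.6 CPM in the controls, 15.1, 13.8 and 19.4 in blue_light, 29.7, 24.9 and 30.7 in GL and 12.3, 27.3 and 27.9 in RL. GL lay above control without overlap (log2 0.44 ± 0.28, edgeR, unadjusted p = 0.143), and RL 1 was the lowest library of all. MCM7 stood at 55.5, 72.7 and 56.9 CPM in the controls, 43.6, 33.8 and 60.9 in blue_light, 58.7, 58.9 and 50.9 in GL and 34.0, 56.1 and 51.1 in RL. Its log2 differences from control were −0.42 ± 0.24 in blue_light, −0.14 ± 0.24 in GL and −0.39 ± 0.24 in RL, with overlap in all of them. MCM5, at 15.6, 19.1 and 28.1 CPM in the controls, was likewise lowest in blue_light 2 and RL 1 at 9.69 and 9.71. MCM6 stood at 30.2, 27.7 and 25.8 CPM in GL and at 40.4, 29.8 and 34.0 in the controls, with control 2 inside the GL range.

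The regulators of S-phase entry went separate ways. E2F1, the transcription factor that switches on replication genes, stood at 7.47, 7.02 and 7.77 CPM in the controls, 7.34, 5.06 and 7.80 in blue_light, 6.38, 4.38 and 2.26 in GL and 4.94, 4.30 and 6.47 in RL. GL and RL both lay below control without overlap, with log2 differences of −0.77 ± 0.37 (edgeR, unadjusted p = 0.0576) and −0.50 ± 0.37, while blue_light overlapped. CCNE1, a cyclin E that activates CDK2, stood at 7.62, 5.58 and 6.01 CPM in the controls and at 4.81, 5.50 and 3.72 in RL, with RL the lower and a log2 difference of −0.45 ± 0.27. Its paralog CCNE2 stood at 3.0, 0.490 and 1.70 CPM in the controls, 6.49, 4.44 and 5.17 in blue_light, 2.46, 2.50 and 0.561 in GL and 2.97, 1.60 and 0.415 in RL. CCNE2 was the S-phase member with the largest blue_light difference, log2 1.63 ± 0.80 (edgeR, unadjusted p = 0.0623), and the only S-phase member with blue_light above control without overlap. Its difference between the library sets, 1.89 log2, was also the largest of the S-phase class, and the set holds all blue_light libraries. CDC6 and CDT1, which load the helicase onto origins, stayed between 0.593 and 5.83 CPM and between 1.04 and 4.33 CPM over the 12 libraries, with all light groups overlapping control.

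Genes of nucleotide supply and the fork clamp were among the most abundant S-phase members. TYMS, thymidylate synthase, stood at 19.7, 18.6 and 11.3 CPM in the controls, 15.4, 20.6 and 21.0 in blue_light, 24.7, 19.3 and 21.8 in GL and 9.77, 13.8 and 13.7 in RL. All its RL libraries lay below all blue_light and GL libraries (GL minus RL log2 0.82 ± 0.25, edgeR, unadjusted p = 0.00680, adjusted p = 0.470). PCNA ranged from 53.9 to 88.5 CPM, and its differences from control were 0.08 ± 0.21, 0.04 ± 0.21 and 0.31 ± 0.21 log2 in blue_light, GL and RL. RRM2, the regulated subunit of ribonucleotide reductase, was at 15.4 CPM in RL 1 but at 50.4 and 53.9 in RL 2 and RL 3, so that RL held both its lowest and its highest library of the 12.

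The light groups were also compared with each other. Blue_light minus GL gave a median log2 difference of 0.52 over the mitotic members (23 higher, 7 lower) and −0.21 over the S-phase members (6 higher, 9 lower), against 0.05 over all genes, of which 53.4% were above 0. No member changed by edgeR, against 0.0495% of all genes, and 7 had an unadjusted p below 0.05, against 14.9%. KIF14 had the smallest p of the members, with blue_light at 15.8 to 22.0 CPM and GL at 4.75 to 6.53 (log2 1.73 ± 0.38, edgeR, unadjusted p = 0.000569, adjusted p = 0.178). DESeq2, which called 383 genes in all here, called KIF14 (adjusted p = 0.00377). MCM2 was the S-phase member among the 7 and lay lower in blue_light (log2 −0.82 ± 0.28, edgeR, unadjusted p = 0.0129). With a term for the library set, which holds all blue_light and no GL libraries, the mitotic median was −0.31 with 12 members higher and 18 lower. Without blue_light 2 it was 0.34.

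Blue_light minus RL had a mitotic median of 0.21 (21 higher and 9 lower, with 51.9% of all genes above 0) and no called member, against 0.011% of all genes. It had 1 member at an unadjusted p below 0.05, TYMS, against 5.14% of all genes. With the library set as a term this mitotic median also turned, to −0.32 with 6 higher and 24 lower. Single libraries moved it: it was 0.48 without RL 1, 0.035 without RL 2 (15 higher, 15 lower), 0.11 without RL 3 and 0.14 without blue_light 2. GL minus RL had a mitotic median of −0.32 with 5 members higher and 25 lower, where 48.3% of all genes were above 0. It was −0.51 without GL 1, −0.066 without GL 3 (11 higher, 19 lower) and −0.17 without RL 1, and with the library set as a term 15 members were higher and 15 lower. It also had no called member, against 0.0715% of all genes, and 5 members at an unadjusted p below 0.05, against 8.6% of all genes. In the test of any difference among the 4 groups no member was called by edgeR, against 0.0605% of all genes, and 8 had an unadjusted p below 0.05, against 7.79%.

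Both classes were then set against the library set and transcript length. The mean log2 CPM of the 5 libraries minus that of the 7 others had a median of 0.84 over the mitotic members, −0.03 over the S-phase members and 0.10 over all genes. Over all genes this difference was −0.02 in the shortest of 5 equal length classes (median 862 bases) and 0.22 in the longest (median 6091 bases). The mitotic median was 0.76, 0.27, 1.11, 0.71 and 1.31 from the shortest to the longest class, above the median of all genes in each. These classes held 2, 6, 5, 9 and 8 mitotic members. The 2 in the shortest were UBE2C at 0.12 and BIRC5 at 1.41, and BIRC5 is too rare for firm values. CENPE and CENPF, both with long transcripts (10184 and 10146 bases), had differences of 3.91 and 1.63. PRC1, AURKA, AURKB and CDC20 were on the other side, at −0.60, −0.45, −0.10 and −0.10. Of these 4, chosen after their values were seen, PRC1, AURKA and AURKB lay above all controls in GL. All GL libraries are among the 7 others and all blue_light libraries are in the set. High GL values therefore lower this difference by themselves, and the 2 observations are not separate. The part of the library set in the mitotic differences was not tested beyond the fits given above.

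**Figure D5:**
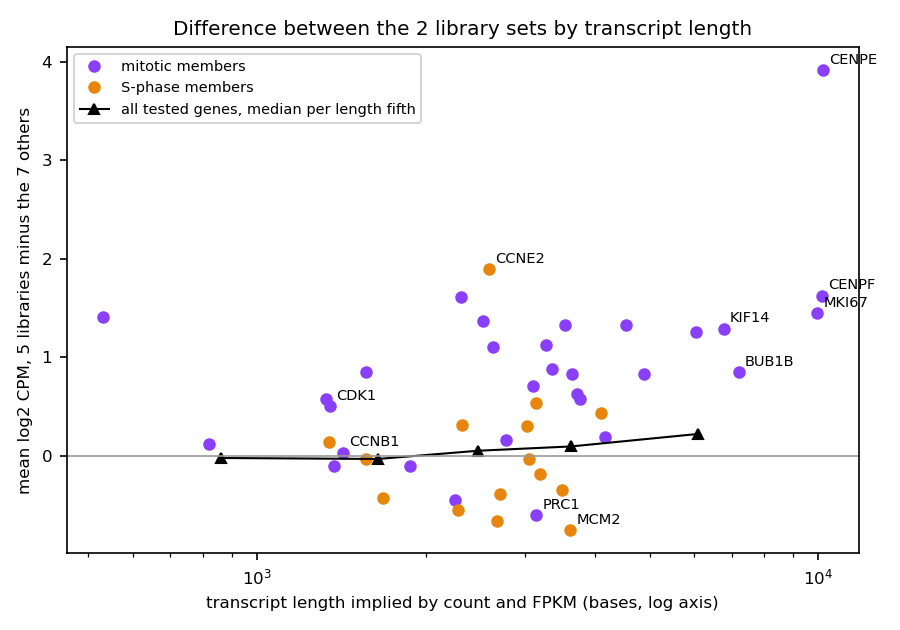
Difference in mean log2 CPM between the 5 libraries of the set and the 7 others, for each member, against the transcript length implied by its count and FPKM (log axis, bases); triangles give the median of all tested genes in each of 5 length classes. Mitotic members (purple) lie mostly above the line of all genes with a median of 0.84, CENPE being highest at 3.91, and S-phase members (orange) lie on both sides with a median of −0.03.

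A few members were too rare for firm values. BIRC5, the gene of survivin, stood at 0.261, 0 and 0.186 CPM in the controls, 0.462, 0.563 and 2.09 in blue_light, 0, 1.66 and 0 in GL and 0.108, 0.289 and 1.09 in RL. CENPE was at 0 in control 3 and RL 2 but at 7.38 in control 1, 10.9 in RL 1 and 4.68 to 9.63 in blue_light. BUB1, a kinase of the spindle checkpoint, was below the floor in control 2 at 0.123 CPM and stood at 8.73 in control 1. These are the 3 members with a library at or under the floor, and their fitted differences carry the largest standard errors, 2.11 log2 for BIRC5 and 1.55 for CENPE in blue_light against control. PLK1, a kinase active through the whole of mitosis, had the smallest standard errors of the mitotic members, at 12.6 to 22.5 CPM over the 12 libraries and with log2 differences of 0.19 ± 0.21, −0.17 ± 0.21 and −0.01 ± 0.21 from control in blue_light, GL and RL.

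Beside the members, 10 lists held 140 other tested genes of the cell cycle, from G1 kinases to cohesin. By edgeR none of the 140 changed in any comparison, and 6 in blue_light, 12 in GL and 8 in RL had an unadjusted p below 0.05 against control, beside the shares of all genes given above. In blue_light most genes of 3 mitotic lists were above control, as the mitotic members were: 14 of 15 centromere and kinetochore genes were higher (median log2 0.60), 15 of 16 spindle motor and midzone genes (0.55) and 15 of 15 checkpoint and anaphase genes (0.29). In GL the same lists had 9 of 15, 9 of 16 and 9 of 15 genes higher, with medians of 0.09, 0.10 and 0.06, and in RL 11 of 15, 14 of 16 and 12 of 15, with medians of 0.27, 0.45 and 0.21. Control 1 stood near the blue_light level in these lists and controls 2 and 3 below it: the mean log2 CPM of the spindle list was 3.98 in control 1, 2.64 and 2.89 in controls 2 and 3, and 3.75 to 4.13 in blue_light. The list of the CDK1 switch had 7 of 9 genes higher in blue_light (median 0.25), 1 of 9 in GL (−0.19) and 5 of 9 in RL (0.02). Condensin and cohesin genes had 11 of 15 higher in blue_light (0.14), 5 of 15 in GL (−0.18) and 11 of 15 in RL (0.14). NUF2, the partner of NDC80, stood at 13.5, 5.85 and 4.95 CPM in the controls and at 23.5, 14.2 and 15.7 in blue_light. ESPL1, separase, which cuts cohesin at anaphase, stood at 4.72, 3.54 and 1.51 CPM in the controls, 7.83, 6.77 and 11.3 in blue_light and 8.28, 7.44 and 8.45 in GL, both apart from control. MASTL, the kinase that protects CDK1 targets from dephosphorylation, stood at 13.1, 7.56 and 15.4 CPM in the controls, 17.8, 26.9 and 21.0 in blue_light, 14.3, 13.2 and 5.90 in GL and 24.4, 17.6 and 29.6 in RL, so that blue_light and RL lay above control and GL overlapped it.

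The lists of the earlier phases followed no single order. The median log2 difference of the E2F, MuvB and FOXM1 list was 0.43 in blue_light, −0.06 in GL and 0.10 in RL, that of G1 cyclins and kinases −0.07, 0.18 and 0.07, and that of CDK inhibitors and pocket proteins 0.12, 0.19 and 0.03. Origin licensing and firing had a median log2 difference of 0.19 in blue_light, −0.20 in GL and −0.20 in RL, and the replication fork and nucleotide list −0.04, 0.02 and 0.02. POLA2, a subunit of DNA polymerase alpha, stood at 27.5, 29.6 and 22.0 CPM in the controls, 18.9, 14.2 and 14.8 in GL and 18.2, 17.5 and 20.4 in RL, both below control without overlap. POLE, the catalytic subunit of polymerase epsilon, stood at 23.9, 22.8 and 22.0 CPM in the controls, 16.3, 19.2 and 8.96 in GL and 17.1, 15.5 and 13.8 in RL, again below control. FOXM1, which switches on mitotic genes, stood at 14.5, 6.65 and 5.95 CPM in the controls, 14.6, 8.81 and 18.1 in blue_light, 6.38, 4.64 and 2.69 in GL and 12.5, 14.8 and 12.9 in RL. Its GL libraries were the lowest light libraries, and control 1 again stood with blue_light and RL. CDKN2C, an inhibitor of the G1 kinases CDK4 and CDK6, stood at 8.38, 2.19 and 4.12 CPM in the controls and at 11.7, 9.83 and 13.9 in GL, without overlap (log2 1.27 ± 0.39, edgeR, unadjusted p = 0.00618, adjusted p = 0.488).

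Markers of other cells were read beside the mitotic level. The immune cell list, with 7 of its 10 genes in the table and CD3E at 0 in every library, summed to 13.4, 12.2 and 16.6 CPM in the controls, 13.6 to 18.6 in blue_light, 11.4 to 18.0 in GL and 14.5 to 22.4 in RL. The basal and limbal epithelium list, with 6 of its 8 genes in the table, summed to 3970, 2864 and 4211 CPM in controls 1 to 3, to 2447 to 3843 in blue_light, to 4345 to 4859.9 in GL and to 4323 to 5458 in RL. GL and RL thus lay above the controls in this sum and blue_light overlapped them. The largest parts of the sum were KRT5 and COL17A1, whose group means were higher in GL than in control (1902 against 1403 and 2242 against 1793 CPM). Those of ITGB4 and TP63 were lower in GL (232 against 313 and 127 against 153 CPM). The mean log2 CPM over the list overlapped, at 6.00, 6.73 and 7.17 in controls 1 to 3, 6.57 to 7.15 in GL and 6.72 to 6.78 in RL.

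Lens transcripts were also uneven. The lens list, of crystallins and other lens fibre genes, with 14 of its 15 genes in the table, summed to 5744, 8656 and 5393 CPM in controls 1 to 3, to 768 to 3546 in GL and to 652 to 3261 in RL, both below control without overlap. In blue_light it summed to 15818 in blue_light 1 and to 2072 and 2572 in the other libraries. Without blue_light 1 the mitotic median of blue_light against control was 0.93, with 30 members higher. Of the other lists, differentiated corneal epithelium (27535 to 36048 CPM in the controls, 41620 to 43324 in GL) and keratocytes (31426 to 37089 against 41413 to 43509) lay above control in GL. Among keratocyte genes COL1A1 (4497 to 9567 CPM in the controls, 13440 to 16349 in GL) and COL5A1 (595 to 1046 against 1223 to 1484) lay apart. KERA, LUM and DCN overlapped control. The blood vessel list summed above control in GL and RL, at 79.8 to 96.4 CPM in the controls, 97.4 to 127 in GL and 113 to 142 in RL. Most of that sum was KDR, at 68.6 to 79.0 CPM in the controls and an overlapping 76.2 to 113 in GL. The mean log2 CPM over its 4 tested genes overlapped control in GL (0.60 to 1.09 in the controls, 0.21 to 1.35 in GL). In RL it lay above, at 1.15 to 2.86. The conjunctiva, corneal endothelium, erythroid and Schwann cell lists overlapped control in summed CPM in each light group. The mean log2 CPM of the Schwann cell list, 1.94 to 2.12 in the controls, was lower in blue_light and GL without overlap. It was 1.02 to 1.80 in blue_light and 1.64 to 1.86 in GL, and RL overlapped control. The retina list was high in control 2, blue_light 1 and GL 3, and without those 3 libraries the mitotic medians were 0.64 in blue_light, 0.10 in GL and 0.44 in RL. The part of lens and the other cells in the mitotic differences was not tested otherwise.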

How the data were processed

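RNA of rabbit cornea was measured in 12 libraries made with a SMARTER mRNA-Seq kit, per the labels. Per the file headers, the authors deposited 2 values for every gene in every library, an estimated count and an FPKM. The submitters' processing notes name GRCm38 and mm10, a mouse build, while the table lists rabbit gene identifiers; the aligner, the counting tool and its strand setting: not given in the sources used here. Counts were whole numbers that stepped by about 3.73, so 1 fragment was taken as 3.73 counts, an approximate value. Groups came from the labels. The members and gene lists were chosen with earlier results of these data known.

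In R 4.3.3, edgeR 4.0.16 quasi-likelihood tests (glmQLFit, glmQLFTest; TMM; filterByExpr) were fitted with 4 group means over 12 libraries, and p-values were adjusted by Benjamini-Hochberg over 18171 genes (threshold 0.05). The biological coefficient of variation was 0.578, and TMM factors lay between 0.944 and 1.06. The fit was also run on simulated counts, which held no library set and no uneven tissue content, so that run does not bear on either. Alternatives used DESeq2 1.42.0, limma 3.58.1 on log2(FPKM + 1) and log2(FPKM + 0.1), other scalings and filters, covariates and omitted libraries; a fit of the 7 libraries outside the library set was chosen after seeing the data. Groups overlap unless every library of one exceeds every library of the other in CPM.

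Named by rule were CDK1, CCNB1, any called member, the 4 mitotic and 3 S-phase members with the smallest p per light group, and up to 2 genes of each other list with the smallest p among the 4 groups; other members and markers were named after their values were seen. A RefSeq gene table (mOryCun1.1) served for names only. No promoter or protein sequences were used here.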

Additional observations from a re-analysis of the deposited data

How the results depend on the processing

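Across alternatives no member was called except by DESeq2, which called 2 in RL against control (CCNB1, UBE2C), 1 in the pooled light comparison (CCNB1), 1 in blue_light against GL and 1 among the 4 groups (KIF14 in both). The count of all genes called moved with the tool and the libraries: by edgeR and then DESeq2 it was 3 and 29 in blue_light against control, 10 and 147 in GL, 2 and 87 in RL, 2 and 55 for the light mean, 9 and 383 in blue_light against GL, 2 and 81 in blue_light against RL, 13 and 202 in GL against RL, and 11 and 267 among the 4 groups. With only the 2 groups in the fit, the counts were 7, 28 and 5 for blue_light, GL and RL against control and 3 for GL against RL. Limma on log2(FPKM + 1) gave 1 in RL against control, 6 in blue_light against RL, 20 in GL against RL and 22 among the 4 groups; on log2(FPKM + 0.1) it gave 5 in blue_light against control, 15 against GL, 9 against RL and 22 among the 4 groups. Without the 3 libraries highest in retina markers the counts were 1 in blue_light and 1 in GL against control, 1 for the light mean, 0 and 1 in blue_light against GL and RL, 2 in GL against RL and 0 among the 4 groups. With no filter, 5 were called in blue_light against RL and 22 among the 4 groups; with genes of mean FPKM 1 or more, 14 in blue_light against GL; with counts divided by the step, 4 in blue_light against RL. The 7 libraries outside the set gave 5 in GL and 9 in RL against control and 8 in GL against RL. With log2 library total as a covariate, 5 were called in GL against control, 2 in blue_light against GL and 6 among the 4 groups; the mitotic median of GL against control was 0.83 (0.93 in the 7 libraries), and the S-phase median was −0.22 in GL against control and 0.12 in blue_light against GL. With the library set as a covariate, 0 genes were called in blue_light against GL, the mitotic median was −0.31 there and −0.32 in blue_light against RL, and MCM2 in blue_light against control reversed to 0.079. The cause of these shifts was not tested. Leaving out 1 library at a time, genes called ran from 2 to 10, 3 to 21 and 2 to 9 in blue_light, GL and RL against control, 2 to 9 for the light mean, 3 to 22, 2 to 5 and 5 to 25 in blue_light against GL, blue_light against RL and GL against RL, and 5 to 25 among the 4 groups. The mitotic medians ran from 0.55 to 1.36 in blue_light, 0.054 to 0.93 in GL, 0.44 to 1.32 in RL and 0.27 to 1.22 for the light mean, and the S-phase median of GL against RL from 0.021 to 0.41. Replicate numbers showed no general pairing of the libraries: deviations of 18 same-numbered pairs correlated at −0.0738 to 0.235, 3 of them over 0.1, and 5 of 12 libraries correlated best with their own number. The highest value was that of control 1 with RL 1, both in the library set. Whether some same-numbered libraries share a batch was not tested. With the replicate number as a block, no member was called, and the mitotic medians were 1.01, 0.39 and 0.80 in blue_light, GL and RL against control. With the block 16 and 12 mitotic members reached an unadjusted p below 0.05 in blue_light and RL, against 9 and 8 without it. The shares of all genes were 3.98% and 4.57% with the block and 3.26% and 4.74% without it. With 3 libraries a group and a biological coefficient of variation of 0.578, a missing call does not show that a member did not differ, and reads shared with near-identical gene copies or antisense genes could not be checked.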
